A study of Mus musculus with 12 samples.

Results

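The genes described here are 10 genes of the unfolded protein response, measured in resting B (RB) cells from the spleens of BALB/c mice that the labels describe as female and 6 weeks old. They were taken by symbol as Hspa5, Hsp90b1, Calr, Pdia4, Dnajb9, Sdf2l1, Herpud1, Atf4, Ddit3 and Atf3, out of 29411 gene symbols on a custom one-colour Agilent mouse array. All 10 were on the array, with 14 probes in all, and all 14 probes were well above background and unsaturated on each of the 12 arrays. Every group held RB cells that the methods enriched by removing CD43+ cells, cultured for 4 h in RPMI medium with foetal calf serum, with 2 arrays for each of 6 groups. The groups were unstimulated cells, cells given Pam2CSK4, cells given anti-CD86, cells given both agents (TLR2.CD86), cells given anti-CD40, and cells given anti-CD40 together with Pam2CSK4 (TLR2.CD40). Pam2CSK4 is a synthetic lipopeptide that triggers TLR-2, CD86 is a costimulatory molecule of B cells, and CD40 is the receptor through which T cells help B cells. The study describes the arrays of a group as biological replicates, while the sources used here do not say whether they came from separate mice or cultures, so the p-values measure the spread between these samples. The study asked how CD86 adds to TLR-2 triggering of RB cells, and the comparisons here ask how the stress genes of the endoplasmic reticulum (ER) fared under each signal.

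Secreted and membrane proteins, immunoglobulin among them, fold in the lumen of the ER. When unfolded protein builds up there, the sensors IRE1, PERK and ATF6 start the unfolded protein response, which slows translation through eIF2 and raises transcription of ER chaperones through XBP1 and ATF6 and of stress genes through ATF4. B cells are known for this response because they need it to become antibody-secreting plasma cells. Among the genes described, Hspa5 (BiP), Hsp90b1 (GRP94), Calr (calreticulin) and Pdia4 (ERp72) fold proteins in the lumen, Dnajb9 (ERdj4) and Sdf2l1 assist BiP, Herpud1 serves the degradation of ER proteins, and Atf4, Ddit3 (CHOP) and Atf3 are transcription factors of stress.

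The promoters of 6 of the genes are shown, those of all 4 chaperones of the lumen and of the genes called with a combined stimulus, because the ER stress elements through which ATF6 and XBP1 act are letters a reader can see. All 10 genes had a promoter in RefSeq's mouse annotation (build GRCm38.p6, a C57BL/6J reference and not the BALB/c genome). The 220 bases before each transcription start are printed on the strand of the gene, with motif letters in capitals.
Hspa5, chr2:34771870-34772089, plus strand: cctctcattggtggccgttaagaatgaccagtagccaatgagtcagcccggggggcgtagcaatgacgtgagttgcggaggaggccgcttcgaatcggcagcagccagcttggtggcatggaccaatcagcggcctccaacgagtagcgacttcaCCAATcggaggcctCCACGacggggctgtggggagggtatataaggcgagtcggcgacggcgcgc
Hsp90b1, chr10:86705445-86705664, minus strand: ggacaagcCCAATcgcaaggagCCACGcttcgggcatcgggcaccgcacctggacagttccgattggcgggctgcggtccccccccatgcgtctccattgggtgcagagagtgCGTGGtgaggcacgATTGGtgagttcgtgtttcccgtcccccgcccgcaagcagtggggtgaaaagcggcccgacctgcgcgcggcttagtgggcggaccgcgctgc
Calr, chr8:84846932-84847151, minus strand: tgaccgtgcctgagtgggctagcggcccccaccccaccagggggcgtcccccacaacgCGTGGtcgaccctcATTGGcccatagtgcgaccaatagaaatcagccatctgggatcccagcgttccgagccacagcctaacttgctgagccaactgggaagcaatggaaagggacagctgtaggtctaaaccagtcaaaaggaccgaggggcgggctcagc
Pdia4, chr6:47813513-47813732, minus strand: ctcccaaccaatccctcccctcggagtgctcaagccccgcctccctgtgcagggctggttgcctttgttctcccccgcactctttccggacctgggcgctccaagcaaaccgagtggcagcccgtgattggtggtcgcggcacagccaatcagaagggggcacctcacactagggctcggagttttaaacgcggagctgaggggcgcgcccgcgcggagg
Sdf2l1, chr16:17132384-17132603, minus strand: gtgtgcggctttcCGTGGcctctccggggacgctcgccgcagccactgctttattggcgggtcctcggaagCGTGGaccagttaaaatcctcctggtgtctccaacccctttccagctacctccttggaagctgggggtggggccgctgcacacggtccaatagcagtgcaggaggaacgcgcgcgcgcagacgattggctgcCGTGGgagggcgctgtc
Herpud1, chr8:94386209-94386428, plus strand: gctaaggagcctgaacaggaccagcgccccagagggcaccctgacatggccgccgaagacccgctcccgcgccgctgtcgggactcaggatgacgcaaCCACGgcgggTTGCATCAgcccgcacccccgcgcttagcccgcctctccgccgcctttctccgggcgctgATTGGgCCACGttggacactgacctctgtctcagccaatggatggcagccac

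Motifs were searched on both strands in the 250 bases before the start. The ER stress element ERSE (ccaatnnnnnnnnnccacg) was found in Hspa5, Hsp90b1 and Calr, against 0.113% of 32851 promoters, and Hsp90b1 held 2 copies, at -212 and -107. Herpud1 held ERSE-II (attggnccacg, 0.0304% of promoters) at -52 and, at -112, the element CARE (tgatgcaa, 0.791%) through which ATF4 acts. CARE was also found in Atf3, at -110. The core ccacg, which lies within both stress elements, was in 28.3% of promoters and in 7 of the 10 genes, with Pdia4, Ddit3 and Atf3 the genes without it. No exact match to UPRE (tgacgtgg, 0.563%) or CRE (tgacgtca, 1.55%) was found in any of the 10. The search allowed no mismatch, so near matches were not counted. The Hspa5 promoter, for example, holds tgacgtga, which differs from the UPRE letters in its last base. The matches describe these letters in these windows and were not tested for use by any factor.

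Levels are given as log2 of the processed signal minus the log2 of the 75th percentile of the same array, so that a level of 0 equals that percentile. Levels of different probes are not on a common scale. The arrays lay on 2 slides. On slide 1 were 8 arrays, including both unstimulated and both TLR2.CD40 arrays, and slide 2 held replicate 2 of the other groups. On arrays of the 2 slides, 46.6% to 60.6% of spots were well above background, and 18074 of 31599 probes tested differed between the slides. Of the 10 genes, 9 were lower on slide 2, 7 of them with an adjusted p under 0.05, with differences of -0.40 to 0.01 on the log2 scale and a median of -0.25 against -0.13 over all probes tested. Tests were therefore read without a slide term (the unblocked fit) and with the slide as a block (the blocked fit), which also lowers the spread that each change is set against. Between the 2 arrays of a group, the median absolute log2 difference was 0.0887 in unstimulated cells and 0.105 with TLR2.CD40. It was 0.215 to 0.330 in the groups split over both slides. The unblocked fit pools these into 1 spread for all groups. A gene was called at an adjusted p under 0.05 (limma, Benjamini-Hochberg over all probes tested).

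**Figure D1:**
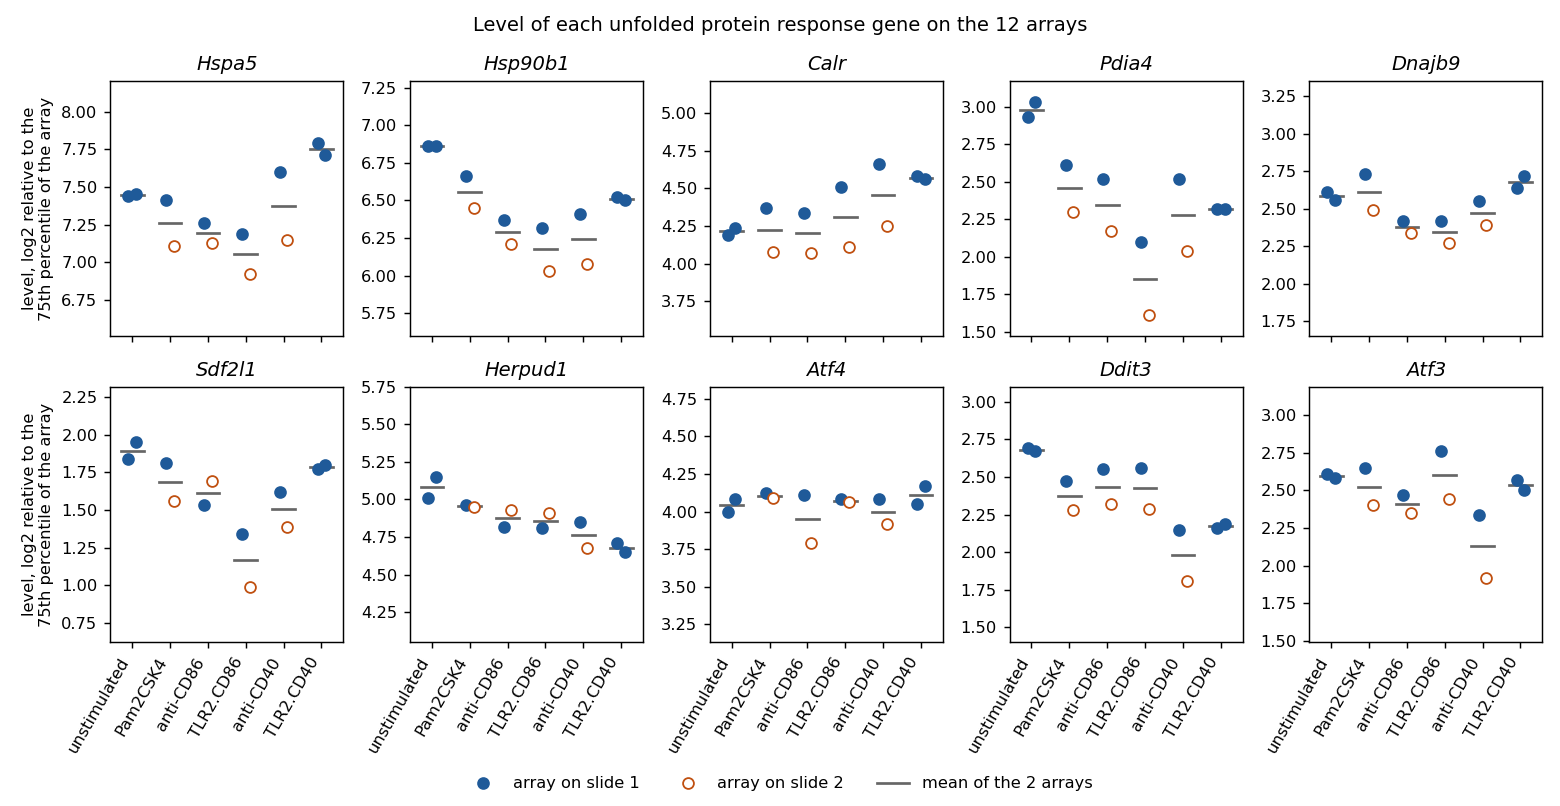
Level of each of the 10 genes (y axis, log2 units above the array's own 75th percentile, brightest probe, the same span of 1.7 log2 units in each panel) on the 12 arrays, by group on the x axis. Filled points are arrays on slide 1, open points arrays on slide 2, and each bar is the mean of the 2 arrays. Pdia4 and Hsp90b1 are highest in unstimulated cells, Hspa5 is highest with TLR2.CD40, and open points lie below filled ones for most genes.

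Among the chaperones of the ER lumen, BiP was lowest with TLR2.CD86 and highest with TLR2.CD40. ERp72 and the brightest probe of GRP94 were highest in unstimulated cells, whereas the dimmer probe of GRP94 was highest with TLR2.CD40. No chaperone was called higher against unstimulated cells by its brightest probe in the unblocked fit. The cells were measured in bulk, where fewer cells of a type and less RNA per cell cannot be told apart. Markers of myeloid and NK cells, and the summed T cell markers, were also lower with the stimuli that gave calls.

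Hspa5 encodes BiP, the chaperone that also holds the stress sensors inactive. Its level was 7.44 and 7.45 in unstimulated cells, 7.41 and 7.11 with Pam2CSK4, and 7.26 and 7.13 with anti-CD86. With TLR2.CD86 it was 7.19 and 6.92, with anti-CD40 7.60 and 7.15, and with TLR2.CD40 7.79 and 7.71. Both TLR2.CD40 arrays lay above all others, and both TLR2.CD86 arrays lay below both unstimulated arrays. By group mean the order was TLR2.CD86 (7.05), anti-CD86 (7.20), Pam2CSK4 (7.26), anti-CD40 (7.38), unstimulated (7.45) and TLR2.CD40 (7.75). The arrays of neighbours in this order overlapped, except those of unstimulated cells and TLR2.CD40. Against unstimulated cells none of the 5 changes was called. With TLR2.CD86 it changed by -0.39 (SE 0.18, adjusted p = 0.185), and the change with TLR2.CD40 was 0.30 (SE 0.18, adjusted p = 0.283). Once blocked by slide the TLR2.CD40 change had the same size and was called (adjusted p = 0.0197), and it was called on slide 1 alone, which holds all 4 arrays compared (adjusted p = 0.0298). With the block the TLR2.CD86 change was -0.25 (adjusted p = 0.062).

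Hsp90b1 encodes GRP94, which folds Toll-like receptors and integrins. Its brightest probe read 6.86 on both unstimulated arrays, 6.66 and 6.45 with Pam2CSK4, and 6.37 and 6.21 with anti-CD86. It read 6.32 and 6.03 with TLR2.CD86, 6.41 and 6.08 with anti-CD40, and 6.52 and 6.50 with TLR2.CD40. Every stimulated array lay below both unstimulated arrays. The fall was called with TLR2.CD86, at -0.68 (SE 0.158, 1.60-fold lower, adjusted p = 0.0358), and with anti-CD40, at -0.61 (SE 0.158, 1.53-fold lower, adjusted p = 0.0368). When blocked by slide these became -0.55 and -0.48, with adjusted p = 0.00161 and 0.00167. On slide 1 alone they were -0.53 and -0.44. The block also brought calls with anti-CD86 (-0.44, adjusted p = 0.00448) and TLR2.CD40 (-0.35, adjusted p = 0.00329). The dimmer of its 2 probes was called in none of these comparisons without the block. It read 5.88 and 5.86 in unstimulated cells, 5.78 and 5.48 with TLR2.CD86, 5.61 and 4.79 with anti-CD40 and 6.15 and 6.11 with TLR2.CD40. These were changes of -0.24 (adjusted p = 0.548), -0.67 (adjusted p = 0.099) and 0.27 (adjusted p = 0.514), so that both probes were lower with anti-CD40 and the probes differed in sign with TLR2.CD40.

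Pdia4 encodes ERp72, a protein disulfide isomerase. Its level was 2.93 and 3.03 in unstimulated cells, 2.61 and 2.30 with Pam2CSK4, and 2.52 and 2.17 with anti-CD86. It was 2.10 and 1.61 with TLR2.CD86, 2.52 and 2.04 with anti-CD40, and 2.32 on both TLR2.CD40 arrays. Every stimulated array lay below both unstimulated arrays, and TLR2.CD86 replicate 2 was the lowest of all. The fall with TLR2.CD86 was -1.12 (SE 0.225, 2.18-fold lower, adjusted p = 0.025), the largest change of the 10 genes in any of the comparisons made. It was -0.92 in the blocked fit (adjusted p = 0.000808) and -0.88 on slide 1 alone (adjusted p = 0.0344). In the unblocked fit the changes with the other stimuli were not called, at -0.52 with Pam2CSK4, -0.63 with anti-CD86, -0.70 with anti-CD40 and -0.66 with TLR2.CD40 (adjusted p = 0.316, 0.148, 0.068 and 0.081). Once blocked by slide all of these were called, at -0.32, -0.43, -0.50 and -0.66 (adjusted p = 0.0377, 0.00698, 0.00249 and 0.00043). It was the only gene of the 10 that the block called with every stimulus.

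Calr encodes calreticulin, the lectin chaperone of the lumen. Its brightest probe read 4.19 and 4.24 in unstimulated cells, 4.37 and 4.08 with Pam2CSK4, 4.34 and 4.07 with anti-CD86, and 4.51 and 4.11 with TLR2.CD86. With anti-CD40 it read 4.66 and 4.25 and with TLR2.CD40 4.58 and 4.56. With Pam2CSK4, anti-CD86 and TLR2.CD86 the arrays lay on both sides of the unstimulated ones, while with anti-CD40 and TLR2.CD40 they lay above them. None of these changes was called in the unblocked fit. The change with TLR2.CD40 was 0.35 (SE 0.196, adjusted p = 0.249), which the block called (adjusted p = 0.00321), as did slide 1 alone (adjusted p = 0.0191). The block also called 0.27 with TLR2.CD86 and 0.41 with anti-CD40 (adjusted p = 0.0172 and 0.00308). The dimmer probe of Calr rose with TLR2.CD40 in the unblocked fit, from 1.37 and 1.49 to 2.32 and 2.16 (log2 change 0.81, SE 0.186, 1.75-fold, adjusted p = 0.0202). Thus the levels of both probes were higher with TLR2.CD40, by different amounts, and 1 of them was called. Before scaling, the brightest probe read 6427 and 5526 with TLR2.CD40 and 6364 and 5790 in unstimulated cells. The dimmer read 1347 and 1045 against 904 and 857.

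The co-chaperone Sdf2l1 was called lower with TLR2.CD86 and was not called with TLR2.CD40, while Dnajb9 was called with no stimulus by its brightest probe. Sdf2l1, which keeps misfolding proteins soluble together with BiP, read 1.84 and 1.95 in unstimulated cells, 1.81 and 1.56 with Pam2CSK4, and 1.53 and 1.69 with anti-CD86. It read 1.34 and 0.99 with TLR2.CD86, 1.62 and 1.39 with anti-CD40, and 1.77 and 1.80 with TLR2.CD40. Both TLR2.CD86 arrays lay below all others. The fall with TLR2.CD86 was -0.73 (SE 0.159, 1.66-fold lower, adjusted p = 0.0301), with -0.65 under the block (adjusted p = 0.00943) and -0.56 on slide 1 alone (adjusted p = 0.037). With TLR2.CD40 the change was -0.11 (SE 0.159, adjusted p = 0.689), although both arrays lay below both unstimulated arrays. Dnajb9, a DnaJ protein that delivers clients to BiP and restrains IRE1, read 2.61 and 2.56 in unstimulated cells, 2.73 and 2.49 with Pam2CSK4, and 2.42 and 2.34 with anti-CD86. It read 2.42 and 2.27 with TLR2.CD86, 2.55 and 2.39 with anti-CD40, and 2.64 and 2.72 with TLR2.CD40. These levels span less than those of any other chaperone or co-chaperone described here. The second of its 3 probes fell from 2.30 and 2.26 to 1.83 and 1.64 with TLR2.CD86 (-0.54, SE 0.14, adjusted p = 0.0471), against -0.24 (adjusted p = 0.242) by the brightest and -0.17 (adjusted p = 0.516) by the third.

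Herpud1, a membrane protein that organises the ubiquitin ligase of ER-associated degradation, was lower with TLR2.CD40. It read 5.01 and 5.15 in unstimulated cells, 4.96 and 4.95 with Pam2CSK4, and 4.82 and 4.93 with anti-CD86. It read 4.81 and 4.91 with TLR2.CD86, 4.85 and 4.68 with anti-CD40, and 4.71 and 4.65 with TLR2.CD40. All stimulated arrays lay below both unstimulated arrays, and it was the only gene of the 10 that was not lower on slide 2. The fall with TLR2.CD40 was -0.40 (SE 0.113, 1.32-fold lower, adjusted p = 0.0425), and the adjusted p was 0.00937 with the block and 0.0309 on slide 1. Quantile normalization ended this call (-0.36, adjusted p = 0.0608). That with anti-CD40 was -0.32 (SE 0.113), not called without the slide block (adjusted p = 0.0885) and called with it (adjusted p = 0.0328).

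Of the stress transcription factors, CHOP was lower with anti-CD40, ATF4 was called in no comparison, and ATF3 was called with anti-CD40 in the blocked fit. Ddit3, which encodes CHOP, a factor that favours cell death under lasting ER stress, read 2.69 and 2.67 in unstimulated cells, 2.47 and 2.28 with Pam2CSK4, and 2.55 and 2.32 with anti-CD86. It read 2.56 and 2.29 with TLR2.CD86, 2.15 and 1.81 with anti-CD40, and 2.16 and 2.19 with TLR2.CD40. All 4 arrays with anti-CD40 lay below all 8 arrays without it. The fall with anti-CD40 was -0.70 (SE 0.16, 1.62-fold lower, adjusted p = 0.0254), and -0.57 under the block (adjusted p = 0.000786) and -0.53 on slide 1 (adjusted p = 0.0265). That with TLR2.CD40 was -0.50 (SE 0.16), not called in the unblocked fit (adjusted p = 0.066) and called with the block (adjusted p = 0.000572) and on slide 1 (adjusted p = 0.0103). With TLR2.CD86 the change was -0.25 (adjusted p = 0.317).

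Atf4 encodes the factor whose translation rises when eIF2 is phosphorylated, so that its RNA level says little of its protein. It read 4.00 and 4.08 in unstimulated cells, 4.12 and 4.09 with Pam2CSK4, and 4.11 and 3.79 with anti-CD86. It read 4.08 and 4.06 with TLR2.CD86, 4.08 and 3.92 with anti-CD40, and 4.05 and 4.17 with TLR2.CD40. All but 1 of the arrays lay between 3.92 and 4.17, and anti-CD86 replicate 2 lay below them. The changes were 0.03 (SE 0.131) with TLR2.CD86 and 0.07 (SE 0.131) with TLR2.CD40, and Atf4 was called in no comparison, with the block or without. Atf3, an immediate stress gene that TLR signals also induce, read 2.61 and 2.58 in unstimulated cells, 2.65 and 2.40 with Pam2CSK4, and 2.47 and 2.35 with anti-CD86. It read 2.76 and 2.44 with TLR2.CD86, 2.34 and 1.92 with anti-CD40, and 2.57 and 2.50 with TLR2.CD40. The anti-CD40 arrays were the lowest of the 12. That change was -0.46 (SE 0.174, adjusted p = 0.103), and -0.33 with the block (adjusted p = 0.022). Without anti-CD40 replicate 1 it was -0.67 and called in the unblocked fit (adjusted p = 0.0376).

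**Figure D2:**
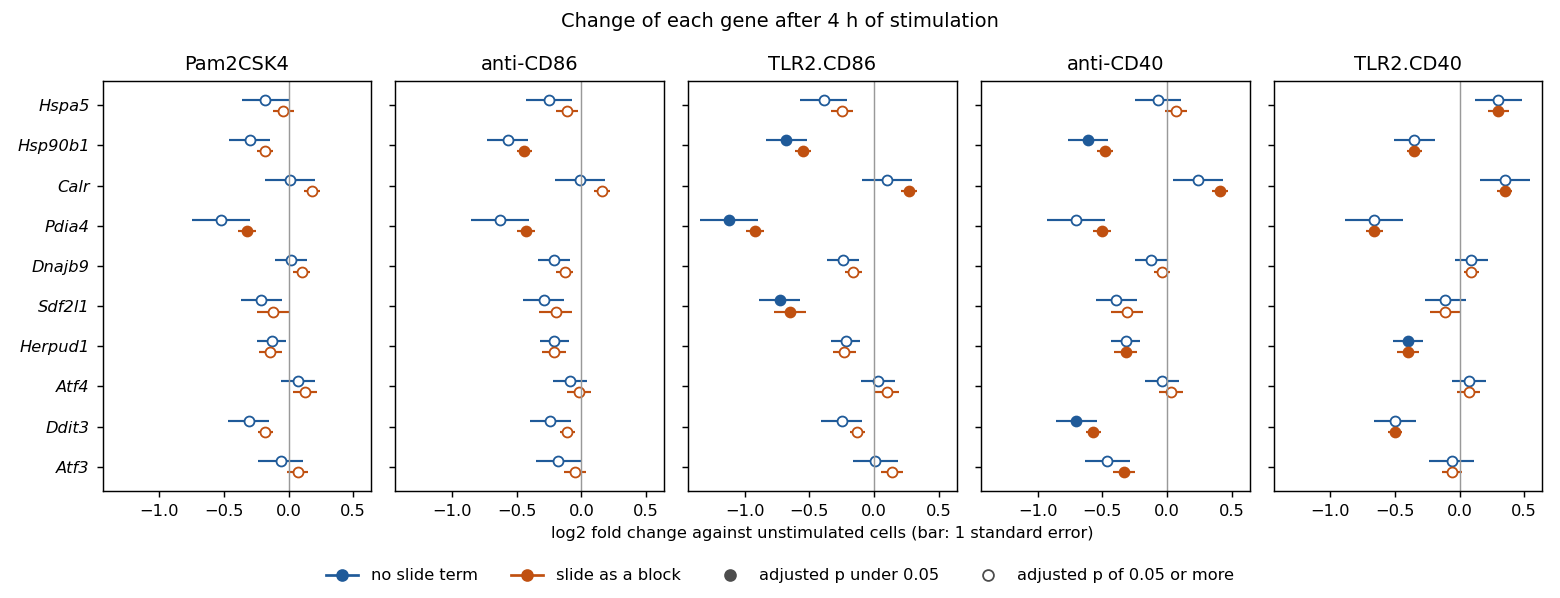
Change of each gene against unstimulated cells (x axis, log2 fold change of the brightest probe) with each of 5 stimuli, in the unblocked fit (blue) and when blocked by slide (orange). Bars are 1 standard error and filled points have an adjusted p under 0.05. The unblocked fit called 3 genes with TLR2.CD86, 2 with anti-CD40 and 1 with TLR2.CD40, all lower.

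Counted over the 10 genes, the unblocked fit called 0 with Pam2CSK4, 0 with anti-CD86, 3 with TLR2.CD86, 2 with anti-CD40 and 1 with TLR2.CD40. All 6 of these calls were lower in stimulated cells. Over all probes tested, 0.136% were called with Pam2CSK4, 2.14% with anti-CD86, 10.6% with TLR2.CD86, 16.7% with anti-CD40 and 18.2% with TLR2.CD40. Lower alone were 7.23%, 10.6% and 9.65% with the last 3 of these of all probes, beside 3, 2 and 1 of the 10 genes, and the difference from these shares was not tested. At an unadjusted p under 0.05 limma found 1, 2, 3, 6 and 3 of the 10 in the same order of stimuli. The median change of the 10 was -0.16, -0.23, -0.25, -0.35 and -0.09, against -0.07, -0.05, -0.03, -0.01 and 0.01 over all probes. These 5 comparisons share the unstimulated arrays. In the blocked fit, 1, 2, 4, 6 and 6 of the 10 were called, where 10.8%, 28.3%, 34.9%, 37.1% and 47.4% of all probes were. Of the 6 with TLR2.CD40, Hspa5 and Calr were higher and Hsp90b1, Pdia4, Herpud1 and Ddit3 lower.

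For any difference among the 6 groups, 0 of the 10 genes passed limma's F test after adjustment, where 20.1% of all probes did. Of the 10, 4 had an unadjusted p under 0.05. The methods' one way ANOVA gave 5 at that level and 0 after Benjamini-Hochberg adjustment. Once blocked by slide, 9 of the 10 passed the F test, all but Atf4, against 59.9% of all probes.

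The 8 calls that the unblocked fit made on these genes, the 6 above and 2 between TLR2.CD40 and TLR2.CD86 described next, all kept their direction without any single array. All were lost without unstimulated replicate 1 or 2 or without TLR2.CD40 replicate 1 or 2. Leaving out 1 array in turn, the TLR2.CD86 change of Pdia4 ran from -1.36 to -0.88 (adjusted p = 0.0199 to 0.153), that of Sdf2l1 from -0.90 to -0.56 (adjusted p = 0.0276 to 0.179) and that of Hsp90b1 from -0.82 to -0.53 (adjusted p = 0.026 to 0.18). These were also lost without TLR2.CD86 replicate 2, those of Sdf2l1 and Hsp90b1 without either anti-CD86 array, and that of Hsp90b1 without TLR2.CD86 replicate 1. The anti-CD40 change of Ddit3 ran from -0.87 to -0.53 (adjusted p = 0.019 to 0.134) and that of Hsp90b1 from -0.78 to -0.44 (adjusted p = 0.0237 to 0.171), and both were lost without anti-CD40 replicate 2, that of Hsp90b1 also without either anti-CD86 array. The TLR2.CD40 change of Herpud1 ran from -0.47 to -0.33 (adjusted p = 0.0351 to 0.236) and stayed called only where the array left out was an anti-CD40 one. The difference between TLR2.CD40 and TLR2.CD86 ran from 0.56 to 0.83 for Hspa5 (adjusted p = 0.0225 to 0.204) and from 0.45 to 0.79 for Sdf2l1 (adjusted p = 0.0385 to 0.202). Both were lost without either anti-CD86 array or TLR2.CD86 replicate 2, and that of Hspa5 without TLR2.CD86 replicate 1. On slide 1 alone and when blocked by slide all 8 calls were kept. Keeping dim probes in the test, or scaling each array to its median in place of its 75th percentile, left 0 of the 8 calls with all directions kept. Scaling to the median moved the median change of all probes to -0.26, -0.19, -0.32, -0.58 and -0.10 with the 5 stimuli in the order above, and that of the 10 genes to -0.35, -0.37, -0.53, -0.92 and -0.19. The median intensity was 51.2 on anti-CD40 replicate 2 and 17.3 to 33.5 on the other arrays. The dimmest spots well above background read 19.5 to 32.9, so this scaling rests on signal near background.

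Of the 5 comparisons made between stimuli, the one between both combined signals was the only one that called any of the 10 genes without the block. BiP and Sdf2l1 were higher with TLR2.CD40 than with TLR2.CD86. Hspa5 differed by 0.69 (SE 0.18, 1.62-fold, adjusted p = 0.0429), with 7.79 and 7.71 against 7.19 and 6.92. Sdf2l1 differed by 0.62 (SE 0.159, 1.54-fold, adjusted p = 0.0413), with 1.77 and 1.80 against 1.34 and 0.99. The arrays of the groups did not overlap for either gene. On slide 1 alone, with 1 TLR2.CD86 array, the differences were 0.56 and 0.45 (adjusted p = 0.0268 and 0.0442). As 2 of 10 they stand beside 12.2% of all probes called in this comparison. Quantile normalization brought the difference of Hspa5 to 0.37 and ended its call (adjusted p = 0.104), and a fit of only the arrays compared ended both calls (adjusted p = 0.111 and 0.147). In the blocked fit 6 of the 10 were called, against 34.5% of all probes. Higher with TLR2.CD40 were Hspa5 (0.55), Sdf2l1 (0.53), Pdia4 (0.26), Dnajb9 (0.25) and Hsp90b1 (0.20), and lower was Ddit3 (-0.38). By its brightest probe Calr alone among the chaperones and co-chaperones was not called in that fit (0.09, adjusted p = 0.321), while its dimmer probe was (0.32, adjusted p = 0.0322).

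**Figure D3:**
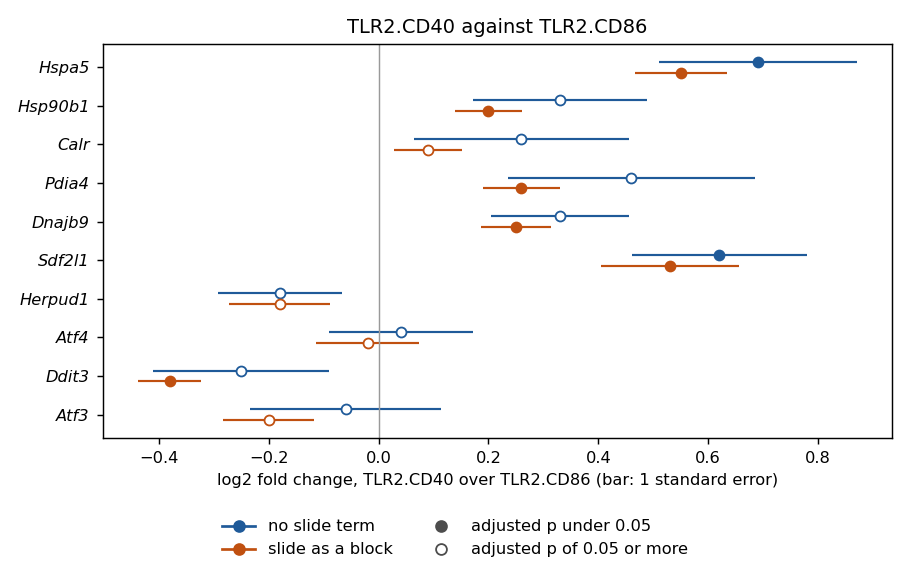
Difference between cells given TLR2.CD40 and cells given TLR2.CD86 for each of the 10 genes (x axis, log2 fold change of the brightest probe), in the unblocked fit (blue) and once blocked by slide (orange). Bars are 1 standard error and filled points have an adjusted p under 0.05. Hspa5 (0.69) and Sdf2l1 (0.62) were called in both fits.

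Whether a second signal added to the first was asked by setting each combined stimulus against its parts. TLR2.CD86 against Pam2CSK4 called 0 of the 10 genes in the unblocked fit (3 at an unadjusted p under 0.05), where 0.0633% of all probes were called. The differences of Pdia4 (-0.60), Sdf2l1 (-0.52), Hsp90b1 (-0.38) and Dnajb9 (-0.26) were called with the block, as 4 of 10 against 10.7%, with adjusted p = 0.0098, 0.0413, 0.0167 and 0.0436. The dimmer probe of Hsp90b1 changed by 0.14 here, against the direction of the brightest. For Pdia4 the difference was -0.51 within slide 1 and -0.69 within slide 2, and for Sdf2l1 it was -0.48 and -0.57. Against anti-CD86, 0 of the 10 were called (1 unadjusted, 0.225% of all probes), and with the block Pdia4 was (-0.49, adjusted p = 0.0152), as 1 of 10 against 7.54%. TLR2.CD40 against Pam2CSK4 called 0 of the 10 (2 unadjusted), where 9.91% of all probes were called. With the block Hspa5 was higher (0.34) and Pdia4 (-0.34) and Ddit3 (-0.32) lower, as 3 of 10 against 31.4%. TLR2.CD40 against anti-CD40 called 0 of the 10 in both fits (1 unadjusted), against 2.90% and 15.0% of all probes. The interaction, the combined effect minus the sum of the single effects on the log2 scale, was called for 0 of the 10 with CD86 (0 unadjusted, 0.0190% of all probes) and 0 with CD40 (1 unadjusted, 1.15%). Under the block neither interaction called any of the 10. With CD86 the interaction ran from -0.24 to 0.30, and the 95% intervals of the 10 genes lay between -0.78 and 0.86. These intervals used the residual degrees of freedom alone and are wider than those of limma's test. The lack of calls thus does not show that there was no interaction. Without the block the CD40 interaction was above 0 for all 10 genes, at 0.05 to 0.56. Its median was 0.48, against 0.16 over all probes. With the block the median of the 10 was 0.18, and Calr (-0.24) and Atf4 (-0.09) were below 0.

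The other genes of the pathway were taken from a list of 64, of which 62 were on the array and 59 were tested. With TLR2.CD86, 12 of the 59 fell and 1 rose. The 12 took in 5 of 11 genes of translocation and export, among them the Sec61 translocon subunits Sec61a1, Sec61b and Sec61g (the other probes of Sec61a1 changed by 0.45 and 0.29), and 3 of 11 other chaperones. The largest falls were of Asns, asparagine synthetase and a target of ATF4, at -0.95 (SE 0.145, adjusted p = 0.0134), of Ddit4, which restrains mTORC1, at -0.87 (SE 0.169, adjusted p = 0.0234), and of Dnajc10, a reductase of the ER, at -0.75 (SE 0.14, adjusted p = 0.0213). The gene that rose was Ppp1r15a (GADD34, on the array under the older symbol Myd116), which directs the phosphatase that reverses eIF2 phosphorylation, from 3.05 and 3.03 to 4.14 and 3.84 (0.95, SE 0.159, adjusted p = 0.0164). Of the 59 genes 20.3% were thus called lower, beside 7.23% of all probes, and their median change was -0.40 beside -0.03. With the block their median was -0.31. These shares set the brightest probes of a chosen list against all probes. Here and with the other stimuli below, the difference from all probes was not tested. Leaving out 1 array in turn, the 13 calls became 0 to 18, with 0 without either unstimulated array, 1 without TLR2.CD86 replicate 2, 4 without TLR2.CD86 replicate 1, 5 without either TLR2.CD40 array and 7 without either anti-CD86 array. All 4 of the changes just given with their sizes were lost without TLR2.CD86 replicate 2.

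With Pam2CSK4 0 of the 59 were called in the unblocked fit (15 at an unadjusted p under 0.05). With anti-CD86 Asns alone was called, at -0.85 (SE 0.145, adjusted p = 0.0373), and this call was lost within slide 1 and without any 1 array other than an anti-CD40 array. Anti-CD40 raised 4 and lowered 11, or 18.6% of the 59 lower beside 10.6% of all probes. The largest of these were Eif2ak3, which encodes the sensor PERK, at -1.06 (SE 0.192, adjusted p = 0.0123), the oxidase Ero1lb at -0.83 (SE 0.16, adjusted p = 0.0149) and Sil1, the nucleotide exchange factor of BiP, at -0.75 (SE 0.185, adjusted p = 0.0317). Those that rose most were Ppp1r15a (0.87, adjusted p = 0.0125), Mbtps2, the protease that frees ATF6 (0.78, adjusted p = 0.0181), and Sel1l, a partner of the degradation ligase (0.52, adjusted p = 0.0314). The second probes of Mbtps2 and Sel1l changed by 0.08 and 0.05.

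TLR2.CD40 raised 6 and lowered 9 of the 59, or 15.3% lower beside 9.65% of all probes. Ppp1r15a rose from 3.05 and 3.03 to 4.23 and 4.26 (1.2, SE 0.159, adjusted p = 0.00229). Ddit4 rose from 4.74 on both arrays to 5.65 on both (0.91, SE 0.169, adjusted p = 0.00881), where with TLR2.CD86 it stood at 4.02 and 3.72. Eif2s1, the subunit of eIF2 that the stress kinases phosphorylate, rose by 0.84 (SE 0.138, adjusted p = 0.00543). Eif2ak3 fell from 6.36 and 6.35 to 5.27 and 5.28 (-1.08, SE 0.192, adjusted p = 0.00732), Ero1lb by -0.81 (SE 0.16, adjusted p = 0.0114) and Ube2j1, a conjugating enzyme of ER-associated degradation, by -0.75 (SE 0.125, adjusted p = 0.0058), although its other probe changed by 0.24. When blocked by slide, 11 of the 59 were called with Pam2CSK4, 24 with anti-CD86, and 33 with each of TLR2.CD86, anti-CD40 and TLR2.CD40, where 10.8%, 28.3%, 34.9%, 37.1% and 47.4% of all probes were. Between both combined stimuli 7 of the 59 (11.9%) were higher with TLR2.CD40 and 0 lower in the unblocked fit, beside 12.2% of all probes called in either direction, and the interaction with CD40 called 1, Ddit4. Of the 17 named changes of this list in the 5 comparisons, 2 were still called without unstimulated replicate 1, 1 without unstimulated replicate 2 and 10 without either TLR2.CD40 array. None was called after scaling to the median, and 5 were with dim probes kept.

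**Figure D4:**
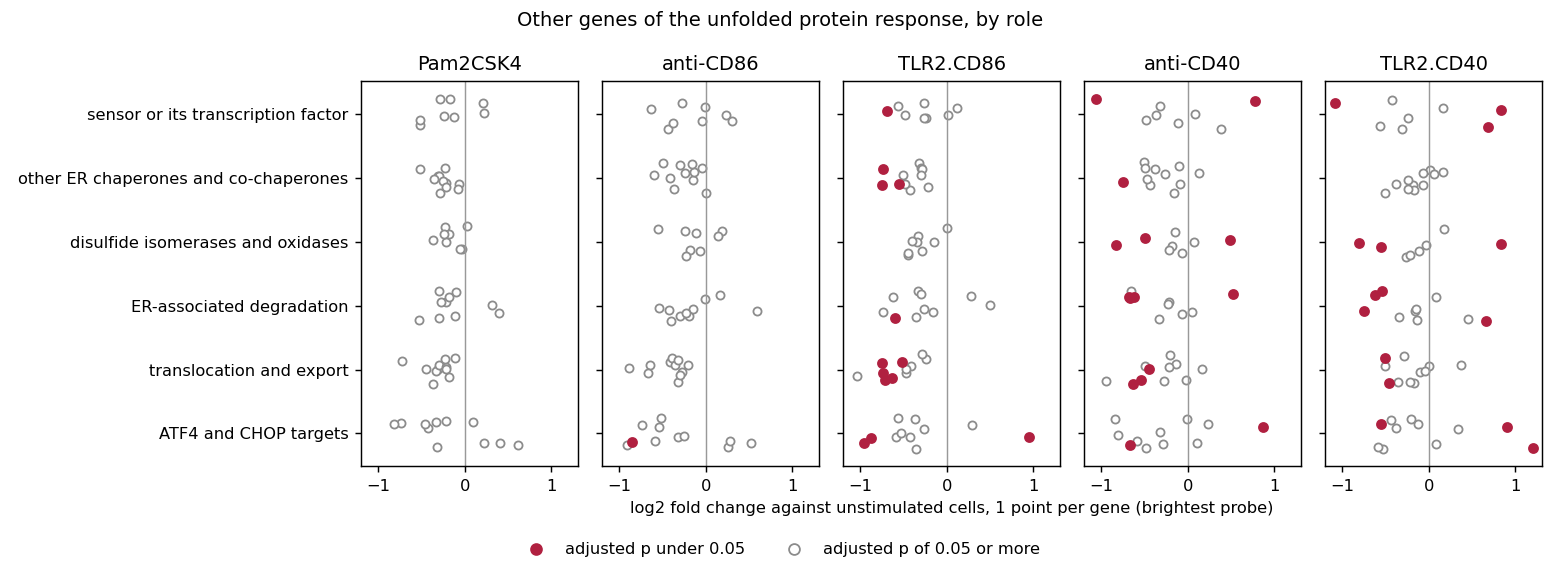
Change of each of the 59 other pathway genes tested (x axis, log2 fold change against unstimulated cells, brightest probe) with each of 5 stimuli, grouped on the y axis by role and spread vertically only so that points can be seen. Red points have an adjusted p under 0.05 in the unblocked fit. Red points lie mostly left of 0 with TLR2.CD86 (12 lower, 1 higher) and on both sides with anti-CD40 (11 and 4) and TLR2.CD40 (9 and 6).

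Heat shock chaperones outside the ER, those of the cytosol with Hspd1 and Hspe1 of mitochondria, were called with none of the 5 stimuli in the unblocked fit (0 of 12, with 0, 4, 4, 3 and 1 at an unadjusted p under 0.05 with Pam2CSK4, anti-CD86, TLR2.CD86, anti-CD40 and TLR2.CD40), and with the block 0 to 6 of the 12 were. Between TLR2.CD40 and TLR2.CD86, Hspe1 was called higher, 10 of the 12 were above 0 and their median was 0.31, beside 0.29 for the 10 genes and 0.04 for all probes, and the blocked fit called 5 of the 12, all higher. Likeness over the 6 group means was highest for Hspa5 with Abt1, Gm10052, Glrx3, Mrpl32 and Amd-ps7 (Pearson r of 0.994 to 0.997). It was highest for Ddit3 with Gm14111, Tshz1, Gm8513, Adam10 and Card6 (0.994 to 0.998), and for Atf3 with Dpm2, Tsc1, Twsg1, Synrg and a transcript named only by its Ensembl number (0.98 to 0.988). These are the highest of 16782 genes over 6 points and share the slides. Among the 10 genes themselves, Hsp90b1 followed Pdia4 (r = 0.91) and Sdf2l1 (0.86), Hspa5 followed Dnajb9 (0.83), Herpud1 followed Ddit3 (0.85), and Calr ran against Herpud1 (-0.87), also over 6 group means.

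The samples showed the markers of B cells and, beside them, those of other cells. All 7 B cell markers were well above background on all arrays. None was called against unstimulated cells in the unblocked fit (0, 0, 1, 2 and 4 in the same order at an unadjusted limma p under 0.05). The blocked fit called 2, 2, 4, 2 and 4 of the 7 higher, and 2 lower with anti-CD40. It called 10.8%, 28.3%, 34.9%, 37.1% and 47.4% of all probes in either direction. The other marker calls given here are from the unblocked fit. Their summed level, in multiples of the 75th percentile, was 509 to 569 in unstimulated cells, 511 to 583 with TLR2.CD86 and 654 to 756 with TLR2.CD40. Of 10 myeloid markers, also all well above background, Csf1r, Itgam, S100a8, Adgre1 and Mpo were lower with TLR2.CD86 and with TLR2.CD40, and 3 were lower with anti-CD40. Above their unstimulated level were 2 of the 10 with TLR2.CD86 and 2 with TLR2.CD40. The myeloid sum was 498 to 530 in unstimulated cells, 352 to 401 with TLR2.CD86, 360 to 422 with anti-CD40 and 442 to 496 with TLR2.CD40. It was 402 to 454 with Pam2CSK4 and 373 to 409 with anti-CD86, which called none of the stress genes described in the unblocked fit. Of 7 NK cell markers, 6 of them well above background on all arrays, 3 were lower with TLR2.CD86 and with anti-CD40 and 1 with TLR2.CD40, with sums of 19.7 to 20.0 in unstimulated cells, 11.6 to 13.9, 12.2 to 14.7 and 15.3 to 16.1. The 10 T cell markers gave 1 call, Thy1, lower with TLR2.CD86, where 5 had an unadjusted limma p under 0.05. Their sum was 41.5 to 42.5 in unstimulated cells and 28.1 to 36.1 with TLR2.CD86. It was 29.5 to 37.9 with anti-CD40 and 38.2 to 38.3 with TLR2.CD40. With Pam2CSK4 and anti-CD86 the T cell sums were 32.9 to 39 and 30.5 to 35.4. The NK cell sums with these were 15.2 to 17.2 and 13.3 to 15.2. Of the plasma cell markers, whose cells use this response most, Irf4 rose with every stimulus but anti-CD86, Sdc1 fell with anti-CD40 and TLR2.CD40, and Tnfrsf17 fell with TLR2.CD86 and anti-CD40. The plasma cell sum was 255 to 275 in unstimulated cells, 246 to 280 with Pam2CSK4 and 222 to 247 with anti-CD86. It was 235 to 273 with TLR2.CD86, 253 to 292 with anti-CD40 and 335 to 341 with TLR2.CD40. Of the red cell markers tested, Epor was lower with TLR2.CD86 and anti-CD40. The part of these cells in the falls of Pdia4, Hsp90b1, Sdf2l1, Ddit3 and Herpud1 was not tested.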

How the data were processed

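RNA of 12 RB cell samples was labelled with Cy3 and hybridised to 1-colour Agilent 8x60K arrays, and the deposited scanner files were made with Feature Extraction 10.5.1.1. The authors deposited the processed signal of each spot, an intensity on a linear scale that is background-subtracted by that program, and a series table of normalized log2 values. From the intensity of each spot, log2 minus the 75th percentile of the array was computed, outlier and control spots were left out, and spots of one probe were averaged. Of 61307 probes, 31599 were tested, namely those with both arrays of some group well above background, less 70 left out for an outlier spot. Each gene is given by its brightest probe. RB cells were grouped by the labels, 2 arrays a group.

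Differences were tested over all 12 arrays in limma 3.58.1 (R 4.3.3), each group having its own coefficient, with Benjamini-Hochberg adjustment over all probes tested. The methods' one way ANOVA, the slide as a block, other normalizations and filters, the deposited log2 values and leaving out 1 array in turn were alternatives. On slide 1 alone a group may hold 1 array, which is assumed to vary like the others. The genes and lists were chosen with earlier results of these data known. Named pathway genes are the 3 with the largest change in each direction among those called in each comparison with unstimulated cells. The Sec61 subunits, the gene called in the CD40 interaction and Hspe1 were named after their values were seen. Likeness was ranked by Pearson's r over the group means. Sequences are RefSeq's for GRCm38.p6, and the accessions of 14 of 14 probes carried the same symbol there. Only 2 arrays a group limit the precision. In data simulated for the TLR2.CD86 comparison over 31599 probes, only 67, 67 and 66 probes were changed, by 0.5, 1 and 2 on the log2 scale. The unblocked test recovered 0 of 67, 25.4% and 72.7% of these. With the slide as a block it recovered 23.9%, 79.1% and 87.9%, with 10 false calls. In the real comparison 10.6% of probes were called, so the adjustment was stricter in the simulation. The simulated shares therefore do not give the recovery in these data. Doses and the pooling of mice were not used here.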

Additional observations from a re-analysis of the deposited data

Results flagged for a closer look

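The effect of TLR2.CD40 against unstimulated cells differed from that of TLR2.CD86 for BiP (Hspa5), by 0.69 on the log2 scale (SE 0.18, limma adjusted p = 0.0429), and for its partner Sdf2l1, by 0.62 (SE 0.159, adjusted p = 0.0413). Both differences came from a test of the difference itself, and both were positive, with higher levels under TLR2.CD40. The TLR2.CD86 arrays lie on both slides and the TLR2.CD40 arrays on slide 1 alone. With the slide as a block the differences were 0.55 and 0.53 and within slide 1 they were 0.56 and 0.45. Quantile normalization gave 0.37 for Hspa5, no longer called (adjusted p = 0.104), and 0.57 for Sdf2l1, and both calls were lost with only the arrays compared, with dim probes kept and under scaling to the median.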

How the results depend on the processing

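Counts here are of the 10 genes called, or log2 changes where a gene is named. All 8 calls kept their direction under every alternative run for them, and the cause of each change of call was not tested. All 8 were kept with normexp, with the deposited log2 values, with the filter on all arrays and with the slide as a block. Only the arrays of the groups compared kept 1. Leaving out 1 array in turn gave 0 to 2 genes for the F test, 0 to 0 for Pam2CSK4 and anti-CD86, 0 to 3 for TLR2.CD86, 0 to 4 for anti-CD40, 0 to 2 for TLR2.CD40 and 0 to 2 for TLR2.CD40 against TLR2.CD86, and 0 to 0 for the other comparisons and both interactions.

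For the F test the count was 3 with quantile normalization, 3 with normexp, 9 with the slide as a block and 4 within slide 1. Scaling to the median, no filter and only the compared arrays each gave 0 with TLR2.CD86, 0 with anti-CD40 and 0 for TLR2.CD40 against TLR2.CD86. With TLR2.CD40 they gave 0, 0 and 6. Also with TLR2.CD40, quantile normalization gave 2, without Herpud1, normexp 3, the filter on all arrays 2, slide 1 alone 6 and the second probe 2. With anti-CD40, slide 1 alone gave 4 and the second probe 1. Quantile normalization gave 1 for TLR2.CD40 against TLR2.CD86. The slide as a block gave 1 with Pam2CSK4, 2 with anti-CD86, 6 with anti-CD40, 6 with TLR2.CD40, 4 for TLR2.CD86 against Pam2CSK4, 1 against anti-CD86, 3 for TLR2.CD40 against Pam2CSK4 and 6 for TLR2.CD40 against TLR2.CD86.

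The sample titles do not say whether replicate numbers pair the samples, and the main fit did not pair them. Deviations of same-numbered arrays correlated at 0.538 to 0.674 among the groups split over both slides. There replicate number and slide coincide, so these values cannot tell pairing from slide. The correlations were -0.107 to 0.067 where unstimulated cells or TLR2.CD40 took part. Between unstimulated cells and TLR2.CD40, both on slide 1 alone, the correlation was 0.067. With the replicate number as a block the counts were 5 for the F test, 1 with anti-CD86, 4 with anti-CD40, 3 with TLR2.CD40 and 1 for TLR2.CD40 against Pam2CSK4, and all 8 calls were kept.

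Of the changes called without the slide block, the sign turned for Sel1l with anti-CD40, at -0.05 under scaling to the median. Some of the others below were called with the block, namely Calr with TLR2.CD86 and anti-CD40, Hsp90b1 with TLR2.CD40 and against Pam2CSK4, and Pdia4 against Pam2CSK4. That scaling also gave Calr -0.19, Atf4 -0.26 and Atf3 -0.28 with TLR2.CD86, Calr -0.33 with anti-CD40, and Dnajb9 -0.02 and Atf4 -0.03 with TLR2.CD40. Quantile normalization gave Hspa5 0.01 with anti-CD86 and 0.04 with anti-CD40, where the block gave 0.07, slide 1 alone 0.15 and leaving out anti-CD40 replicate 2 0.15. With TLR2.CD40, normexp gave Atf4 -0.01, and second probes gave Hsp90b1 0.27 and Dnajb9 -0.30, and for TLR2.CD86 against Pam2CSK4 Hsp90b1 0.14. Without TLR2.CD86 replicate 1, Calr was -0.10 and Atf3 -0.16 with TLR2.CD86, and without replicate 2 they were 0.29 and 0.17. Without unstimulated replicate 1 Atf4 was -0.01 and without replicate 2 Atf3 was -0.01. Without Pam2CSK4 replicate 1, Pdia4 was 0.02 for TLR2.CD40 against Pam2CSK4, and -0.29 without replicate 2.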
